A study of Nothobranchius furzeri with 12 samples.

Results

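In 5 skins of the turquoise killifish Nothobranchius furzeri, 128 of 23546 genes differed by at least 10-fold between the highest and the lowest skin. These genes were chosen by their skin values. A gene was kept if its highest skin reached 100 CPM (read counts scaled to a common library total) and if the ratio of the highest to the lowest skin, with 0.5 added to each CPM, was at least 10. Their skin values are therefore a description and carry no test. The 1508 other genes with a highest skin of at least 100 CPM had a median ratio of 2.38, and the 128 had 16.2.

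The libraries came from total RNA of brain and skin of fish aged 39 weeks, with no treatment named in the labels. The strain is MZM-0410 in the labels of the samples and MZM-0401 in the design text. The labels give 6 brain and 6 skin libraries, 1 for each fish number and tissue. The brains are of fish 6, 8, 24, 38, 41 and 46, and the skins used here are of fish 8, 12, 38, 41 and 46. By these numbers, taken as given, 4 fish gave both tissues. The library labelled skin of fish 6 was left out of the choice of genes because it resembles brain. Genes at least 20-fold higher in brain had, in the median, 93.2% of their brain level in it, against 0.408 to 2.80% in the other skins. Its values are given apart. What distinguishes one fish from another, such as sex, is not given in the sources used here.

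The turquoise killifish is a short-lived annual fish used to study ageing. Fish skin is a living, mucus-covered tissue of epidermis, dermis and scales that also holds pigment cells, immune cells, nerves and blood, with muscle lying beneath it. The amount of each of these in a dissected piece can differ from fish to fish, and so can the activity of a gene within a cell type. In bulk RNA, fewer cells of a type and less RNA per cell cannot be told apart. The deposited table gives gene identifiers without names, and none of them was found in a RefSeq gene table of another assembly. No gene is therefore given a name or a role here, the labelled tissues could not be checked against marker genes, and 3 genes are printed by identifier.

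Brain libraries held 17555681 to 22653360 reads in genes and the 5 skin libraries 9100419 to 27094192, the shallowest being skin of fish 46. The lowest skin of the 128 genes still rested on a median of 308.5 reads, and on at least 13 reads. In 3 genes the lowest skin was under 1 CPM. Across the 128 genes the median of the highest skin was 244 CPM, with 26 genes at 500 CPM or more and 7 at 1000 or more. The ratio reached 20 in 48 genes and 100 in 4. At the bound on the ratio, the nearest gene inside was at 10.04 and the nearest outside at 9.95. At the bound on the level, these were 100.5 and 99.2 CPM. Single skins and the scaling move the list. The rule took 52 genes without skin of fish 12 and 83 without skin of fish 41. TMM factors (trimmed mean of M-values) allow for a few genes taking much of a library. With them, the same rule took 195 genes, 119 of them among the 128. The factors of the 5 skins were 0.563 to 0.708, which raises every skin CPM and so loosens the bound of 100 CPM. A bound of 50 CPM by library size took 206 genes. The part of the looser bound in the 195 was not tested.

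The first question was which skins carry these genes. A skin was said to carry a gene if its log2(CPM + 0.5) lay above the midpoint of the lowest and highest of the 5 skins. Skin of fish 46 carried 76 of the 128 genes, skin of fish 38 74, skin of fish 12 73, skin of fish 8 51 and skin of fish 41 28. The skins of fish 38 and 46 thus carried more genes than among the other abundant skin genes, where their shares were 36.6% and 39.2% against 57.8% and 59.4% here. Skin of fish 41 carried fewer, 21.9% against 42.9%. These shares were not tested.

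The highest value lay in skin of fish 12 for 53 genes, fish 38 for 24, fish 8 for 20, fish 46 for 18 and fish 41 for 13. The lowest lay in skin of fish 41 for 57 genes and in skin of fish 12 for 36. Skin of fish 41 was lowest for 44.5% of the 128 genes and highest for 10.2%, against 29.0% and 30.6% of the other abundant skin genes. Skin of fish 12 was often at one end or the other, and much as often among the other abundant skin genes, where it was highest for 35.01% and lowest for 28.5% against 41.4% and 28.1% here. Skin of fish 38 was the highest for 18.8% of the 128 genes and for 3.85% of the other abundant skin genes. The 128 genes together took 3.05% of the reads in skin of fish 12, 1.98% in fish 38, 1.90% in fish 8, 1.85% in fish 46 and 0.719% in fish 41. In brain they took 0.802 ± 0.0855% (SD, n = 6), and every brain lay above skin of fish 41 except the brain of fish 41 itself, at 0.653%. A single gene, Nfu_g_1_014314, held 1276 to 3306 CPM in the brains and 58.4 CPM in skin of fish 41. The shares are by library size, and the TMM factors were 1.45 to 1.47 in brain and 0.644 in skin of fish 41. The order of these shares without that gene or with TMM factors was not computed.

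The genes did not move as one block. They fell into 16 different sets of carrying skins and 40 of the 120 possible orders of the 5 skins, the commonest order holding 13 genes. Of the variance of their centred log2 levels, the first axis took 52.9% and the next ones 27.4% and 15.2%. The other abundant skin genes gave 60.3%, 23.3% and 14.5%. The largest sets were carried by skin of fish 12 alone (32 genes), by all skins except that of fish 12 (16), by fish 38 and 46 (14), by all except fish 41 (12), and by fish 38, 41 and 46 (10). The set of fish 12 alone held 25% of the 128 genes and 13.9% of the other abundant skin genes. The set of fish 38 and 46 held 10.9% and 2.92%. The shares were closer for the other large sets. All skins except that of fish 12 carried 16 of the 128 genes and 10.1% of the others. All except fish 41 carried 9.38% and 7.82%, and fish 38, 41 and 46 carried 7.81% and 5.64%. The commonest set among the others, fish 8 and 12, held 17.51% of them and 5.47% of the 128. These others, being more genes, filled 30 sets and 100 orders. Their commonest order was that of the 128 too, with 6.83% of the others and 10.2% of the 128. These shares were not tested.

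**Figure D1:**
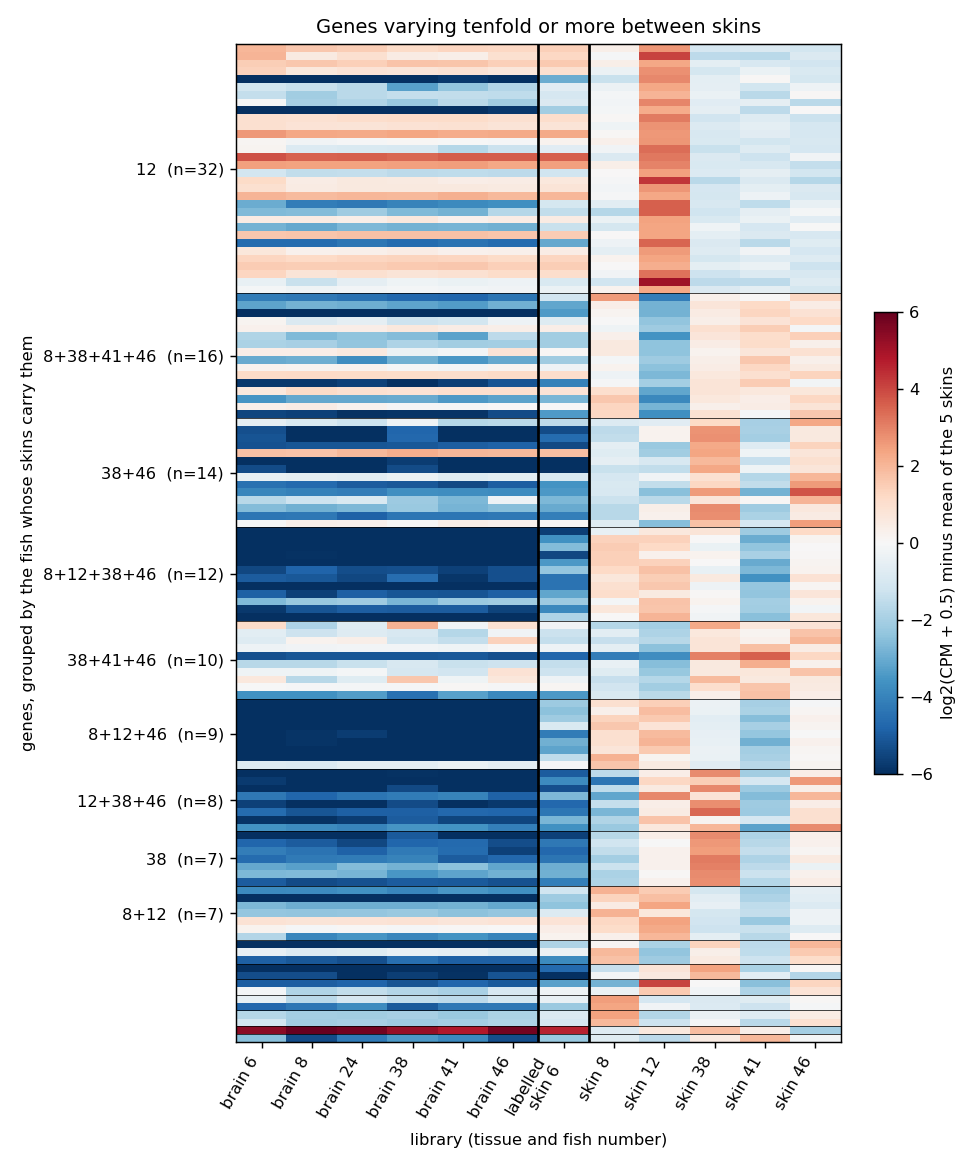
Each row is 1 of the 128 genes and each column 1 of the 12 libraries; colour is log2(CPM + 0.5) minus the gene's mean over the 5 skins, and colours stop at 6 in either direction. Rows are grouped by the fish numbers of the carrying skins, and groups under 7 genes have no label. The 32 genes at the top stand out in skin of fish 12. Of these, 25 average 10 CPM or more in the 6 brains, as do 1270 of the 1508 other abundant skin genes.

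The 32 genes carried by skin of fish 12 alone had a median level of 218 CPM in that skin. It was 31.7 CPM in fish 8, 20.7 in fish 41, 18.3 in fish 38 and 17.5 in fish 46. Skin of fish 12 was above the next skin by a median of 7.07-fold (range 3.93 to 75.3), and the next skin was that of fish 8 in 22 genes. In brain, 25 of the 32 reached a mean of 10 CPM and 4 were under 1 CPM. That mean was also reached by 1270 of the 1508 other abundant skin genes and by 12101 of all 23546 genes. Presence in brain is thus not particular to this set. In 19 of the 32, the brain mean lay above every skin except that of fish 12, and with TMM factors in 13. Those skins are low by the choice of the set, so this count is a description only. It was not made for the other abundant skin genes carried by skin of fish 12 alone. The median level of the 32 genes in the single brains was 37.7 to 57.4 CPM, with the brain of fish 6 the highest. Genes at least 20-fold higher in brain stood lower in skin of fish 12 than in the other 4 skins, at 0.408% of their brain level.

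The 16 genes carried by every skin except that of fish 12 gave the opposite picture. Their median was 8.71 CPM in skin of fish 12. In the other skins it was 95.1 CPM in fish 8, 90.3 in fish 38, 122 in fish 41 and 96.0 in fish 46, and in the brains it was 15.9 to 22.0 CPM. The 10 genes carried by fish 38, 41 and 46 had medians of 121, 120 and 80.2 CPM in those skins, with 26.7 in fish 8 and 11.7 in fish 12. In brain, 8 of these 10 averaged 10 CPM or more, as did 1270 of the 1508 other abundant skin genes.

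The 57 genes lowest in skin of fish 41 had a median brain level of 1.53 CPM, with 24 under 1 CPM and 16 at 10 CPM or more. All 128 genes had a median of 4.24 CPM, with 61 at 10 CPM or more, and the other abundant skin genes a median of 81.8 CPM. The brain level of the 438 other abundant skin genes lowest in skin of fish 41 was not computed. Among the 57 were sets with low brain medians. The 12 genes carried by all skins except that of fish 41 had medians of 212 CPM in fish 8, 268 in fish 12, 125 in fish 38 and 172 in fish 46. Their median was 18.3 CPM in fish 41 and 1.37 to 1.97 CPM in the brains. A further 9 genes were carried by fish 8, 12 and 46, with medians of 163, 309 and 89.4 CPM, against 58.2 in fish 38 and 17.2 in fish 41. In the brains their median was 0.285 to 0.886 CPM. In skin of fish 41 the genes at least 20-fold higher in brain stood at 2.80% of their brain level, against 0.408 to 0.911% in the other skins. The part of this in its low values was not tested.

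**Figure D2:**
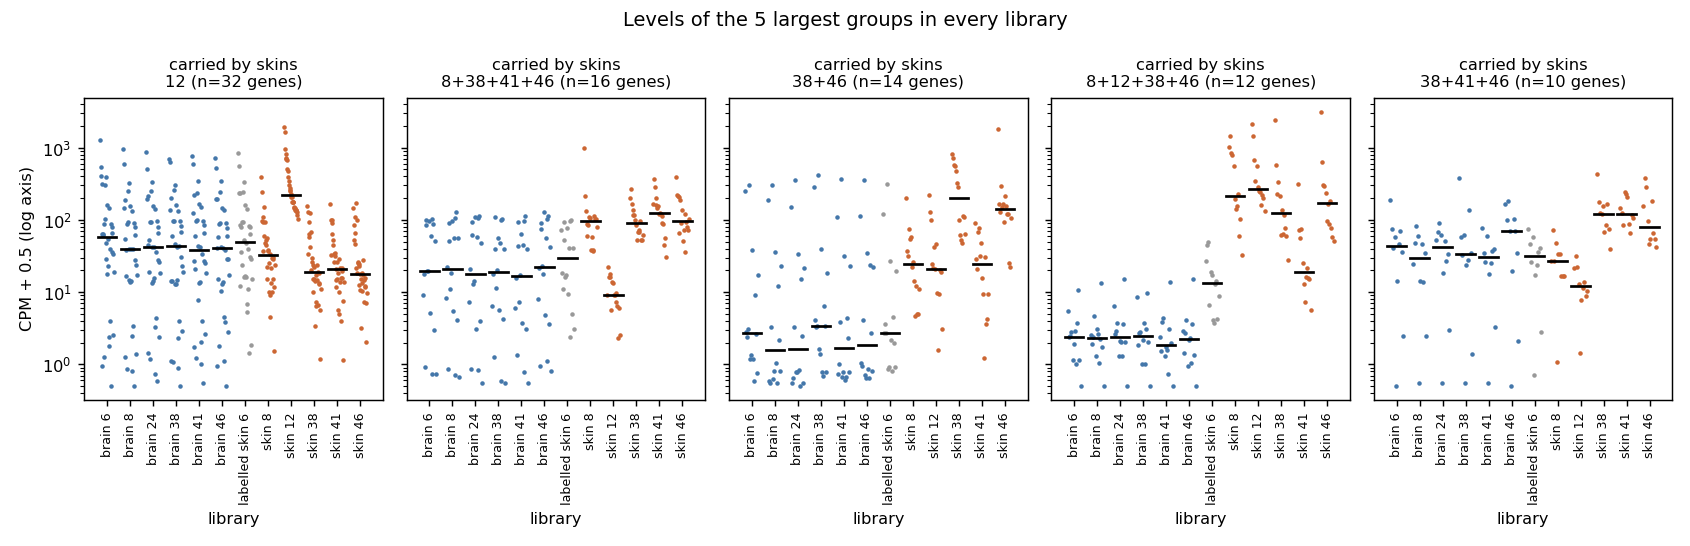
CPM + 0.5 (log axis) in each of the 12 libraries for the 5 largest sets of genes, 1 panel for each set; dots are genes and bars medians. Brains are blue, the library labelled skin of fish 6 grey and the other skins orange. The set of fish 12 alone reaches a median of 218 CPM in that skin, and the set of all skins except fish 41 lies at medians of 1.37 to 1.97 CPM in the brains.

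The 24 genes with their highest value in skin of fish 38 had the lowest median brain level of the groups by highest skin, 0.858 CPM against 5.13 to 17.5. The group was mixed, since it also held a gene with a brain mean of 2234 CPM, Nfu_g_1_014314. Their median CPM was 326 in skin of fish 38, 67.5 in fish 46, 36.6 in fish 12, 21.9 in fish 8 and 19.9 in fish 41. In 16 of the 24, the skins of fish 12 and 46 were both above those of fish 8 and 41. That order held in 23 of the 58 other abundant genes led by skin of fish 38. Their median gene length was 1278 bp, against 2073 to 3359 bp in the other groups by highest skin.

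Of these 24 genes, 20 had a mean under 10 CPM in brain, and none of the 20 exceeded a mean of 2.99. The 20 genes summed to 6775 CPM in skin of fish 38, 1610 in fish 46, 1177 in fish 12, 461 in fish 8 and 382 in fish 41. Their sum in brain was 29.1 CPM in fish 38 (612 reads), 24.5 in fish 6 (540 reads), 17.3 in fish 41, 16.1 in fish 46, 15.4 in fish 24 and 15.3 in fish 8 (346 reads). The choice of these 20 puts brain below skin, so only the order of the brains is described, and fish 38 was the highest. Over all 24 genes fish 38 was not the highest. The brain sums were then 3658 CPM in fish 8, 3136 in fish 46, 3006 in fish 24, 2698 in fish 38, 2584 in fish 6 and 1770 in fish 41, most of it from Nfu_g_1_014314.

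Of the 24 genes, 22 had at least 20 reads over the 6 brains, and in 11 of these the brains of fish 6 and 38 were both above the other 4. Over all genes with as many brain reads this held for 11.1%, and over the 128 genes for 27 of 117. Among the 12 with at least 100 brain reads it held for 4. This count was chosen after the values were seen, and it was not tested.

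**Figure D3:**
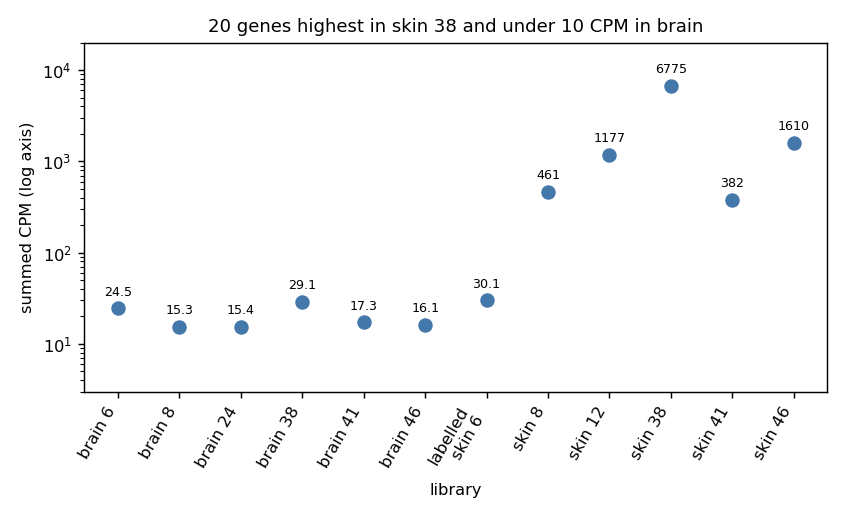
Summed CPM (log axis) in each library of the 20 genes that were highest in skin of fish 38 and had a mean under 10 CPM in brain; each point is 1 library and carries its value. Skin of fish 38 stands at 6775, the other 4 skins at 382 to 1610, and the brains, low by the choice of these genes, at 15.3 to 29.1, with fish 38 and 6 the highest of them.

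The strongest contrast between skins was in a gene of 432 bp. It had 227 CPM in skin of fish 41, 156 in fish 38 and 45.2 in fish 46, but 0.937 in fish 12 and 0.578 in fish 8. These low values were 22 and 13 reads, and the high ones 6146, 2316 and 411. The ratio of the highest to the lowest skin was 211. The gene had 0 or 1 read in each brain and 4 reads in the left-out library of fish 6.

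The second question was how the 128 genes stood in brain, which the choice of genes did not use. Their median over the brain means was 4.24 CPM, against 10.8 for all genes and 81.8 for the other abundant skin genes. In 26 of the 128 (20.3%), all 6 brains were under 1 CPM. This was so for 19.0% of all genes, so the share is near the background, but for 2.98% of the other abundant skin genes. At the other end, 61 of the 128 averaged 10 CPM or more in brain. This was so for 12101 of all 23546 genes and for 1270 of the 1508 other abundant skin genes.

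Brain and skin were compared with edgeR's quasi-likelihood test over 6 brains and 5 skins. Of the 128 genes, 106 were higher in skin and 1 was higher in brain at an adjusted p under 0.05, and 21 were not called. Over the 20149 genes tested, 36.8% were called higher in skin and 39.6% higher in brain. The skin values entered both this comparison and the choice of genes, so nothing is read from the difference between these shares. Among the other abundant skin genes, 83.4% were higher in skin and 3.91% higher in brain. On the log2 scale, brain minus skin, the median difference of the 128 was -5.12, that of the other abundant skin genes -2.08 and that of all genes 0.06.

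Of the 21 genes not called, 15 belonged to the 32 carried by skin of fish 12 alone, whose median log2 fold change was -1.92. With fish number as a replicate block, 12 of the 128 were higher in brain and 101 higher in skin, and 11 of those 12 were genes carried by skin of fish 12 alone. Without skin of fish 12, 13 were higher in brain, and they included all 12. Of the 13, 12 were carried by skin of fish 12 alone. A fish with 1 tissue, such as fish 12, does not bear on the difference in the blocked fit. Both fits thus set brain against skins that are low in this set by its choice. A shift towards brain follows from that choice, and nothing is read from it. Of the calls of the unblocked fit, 8 were lost under the block and 5 without skin of fish 12. In each, the same 1 gene, carried by skin of fish 12 alone, changed sign and was not called the other way. With library size in place of TMM factors, 89 were higher in skin and 4 higher in brain. That scaling moves the median log2 fold change of all genes from 0.06 to 1.25, and over all genes it gives 3762 higher in skin and 12745 higher in brain in place of 7405 and 7971.

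Nfu_g_1_015319 and Nfu_g_1_006687 had the highest single skin values of the genes called higher in skin. Nfu_g_1_015319, a gene of 1370 bp, had 3135 CPM in skin of fish 46, 2379 in fish 38, 2092 in fish 12, 1003 in fish 8 and 308 in fish 41. In brain it had 7.93 CPM in fish 38, 5.97 in fish 24, 4.98 in fish 6, 2.44 in fish 46, 2.07 in fish 8 and 1.88 in fish 41. The tissues did not overlap, and skin of fish 41 lay well under the other 4. Its log2 fold change (brain minus skin) was -9.94 (SE 0.77, edgeR adjusted p = 2.17e-07). Per length, its mean was 1302 RPKM in skin and 3.07 in brain. Its ratio between skins was 10.2 by library size and 9.96 with TMM factors, so its place on the list depends on the scaling. The skin values that chose this gene also entered its test. This holds for every p-value of a single gene given here, so these p-values are descriptions only.

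Nfu_g_1_006687, a gene of 2351 bp, was high in only some skins, with 2024 CPM in fish 8 and 1398 in fish 12. It had 329 CPM in fish 46, 232 in fish 38 and 116 in fish 41. The 6 brains were close to each other, at 31.6 to 42.6 CPM, with a mean of 36.1 ± 3.94 (SD, n = 6). Every skin was above every brain. Its log2 fold change (brain minus skin) was -5.69 (SE 0.70, edgeR adjusted p = 1.08e-05). A gene that differed by 17.3-fold between skins thus differed by 1.34-fold between brains, on the same ratio. The skin values of Nfu_g_1_006687, too, entered both its choice and its test.

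Nfu_g_1_014314, a gene of 783 bp, was the single gene called higher in brain. It had 165 CPM in skin of fish 38, 72.2 in fish 12, 58.4 in fish 41, 26.1 in fish 8 and 10.7 in fish 46. In brain it had 1276 CPM in fish 41, 1741 in fish 38, 1993 in fish 6, 2528 in fish 46, 2562 in fish 24 and 3306 in fish 8. All brains were above all skins, and skin of fish 38 was the highest skin while its brain was the second lowest. The log2 fold change (brain minus skin) was 3.83 (SE 0.64, edgeR adjusted p = 0.000137). Here as well the skin values entered both the choice of the gene and its test.

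**Figure D4:**
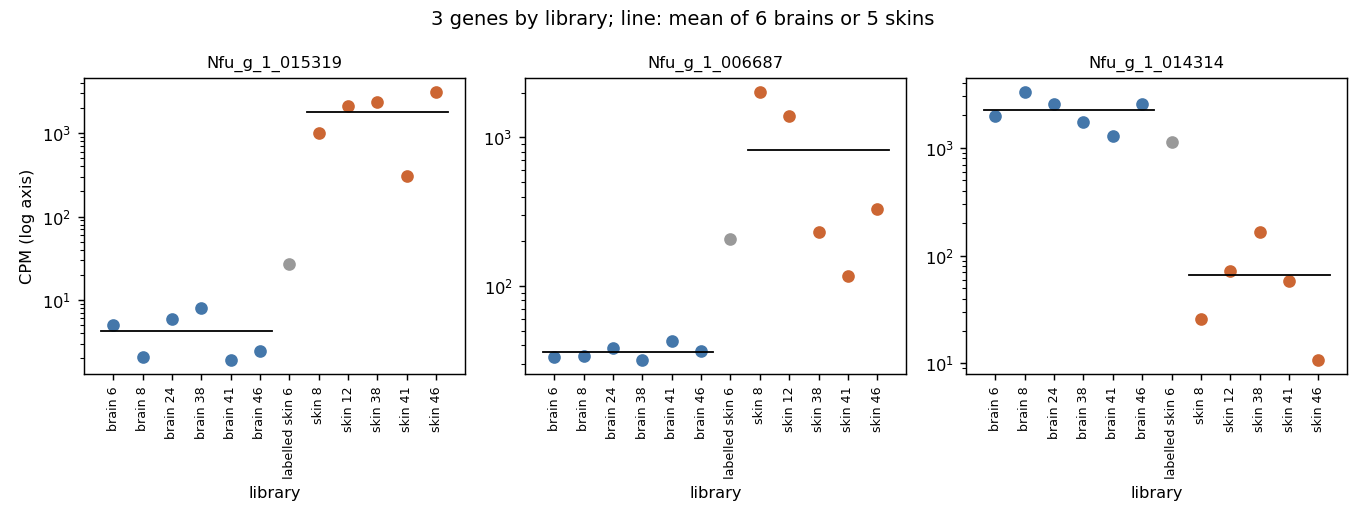
CPM (log axis) of the 3 genes in each library; blue points are brains, the grey point is the library labelled skin of fish 6, orange points are the other skins, and lines are the means of 6 brains and of 5 skins. For Nfu_g_1_006687 the brains lie at 31.6 to 42.6 CPM while the skins run from 116 to 2024.

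The third question was whether genes that vary between skins also vary between brains. On the same ratio, 1 of the 128 genes varied by at least 10-fold between brains, against 0.229% of all genes, and none did without the brain of fish 8 or of fish 38. The median ratio between brains was 1.67, against 1.32 for all genes and 1.26 for the other abundant skin genes. In the same order, the medians of the brain means rose, from 4.24 to 10.8 and 81.8 CPM. The part of these levels in the ratios was not tested. Among the 61 genes averaging 10 CPM or more in brain, 11 (18.0%) varied by at least 3-fold between brains. This was so for 1.52% of all genes of that level and for 3.23% of the other abundant skin genes. The median coefficient of biological variation between brains, from an edgeR fit of the brains alone, was 12.48% in these 61 genes and 9.89% over all 12101 genes of that level. Their upper quartile was 28.6% against 12.0%. The median of the 61 genes thus lay above the upper quartile over all genes, and the gap was larger between the upper quartiles than between the medians. The number of 3-fold genes was 7 without the brain of fish 6 and 8 to 11 without each of the others.

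Of the 11 genes, 6 had their highest skin in a fish whose brain was also sequenced, and in all 6 the highest of the 6 brains belonged to the same fish. The comparison took genes of at least 10 CPM in brain with a 3-fold difference between brains and their highest skin in such a fish. Of all genes meeting these conditions, the match held for 54.2% of 144, and of the other abundant skin genes for 23 of 33. The 6 were picked by their spread between brains after the values were seen, and the match was not tested. Over a wider set the match was near the background. Among 89 of the 128 genes averaging 1 CPM or more in the 4 brains whose fish gave both tissues, the same fish was highest in skin and brain in 28 (31.5%), against 29.0% of all genes. On this measure the match differed by fish. Among the 89 genes it held for 6 of 11 (54.5%) where skin of fish 38 led and 10 of 22 (45.5%) for fish 46. For fish 8 it held in 10 of 45 (22.2%) and for fish 41 in 2 of 11 (18.2%). Among the other abundant skin genes it was 77.3% where skin of fish 38 led and 48.2% for fish 46. It was 25.7% for fish 8 and 17.4% for fish 41. The 6 genes above were all led by skin of fish 38 or 46.

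Fish 38 was the highest in both tissues for a gene of 816 bp, which is the one that varied by over 10-fold between brains. It had 380 CPM in the brain of fish 38, 190 in fish 6, 167 in fish 46, 75.6 in fish 41, 52.6 in fish 24 and 23.7 in fish 8. In skin it had 428 CPM in fish 38, 154 in fish 46, 143 in fish 41, 26.8 in fish 8 and 20.8 in fish 12. The order of fish 38, 46, 41 and 8 was the same in both tissues. The tissues overlapped, and the gene was not called between them (log2 fold change -1.27, SE 0.81, edgeR adjusted p = 0.172).

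A gene of 885 bp followed nearly the same course. In brain it had 135 CPM in fish 38, 69.4 in fish 46, 68.6 in fish 6, 36.7 in fish 41, 26.4 in fish 24 and 13.3 in fish 8. In skin it had 166 CPM in fish 38, 65.7 in fish 46, 65.5 in fish 41, 16.4 in fish 8 and 13.1 in fish 12. In each tissue the level in fish 8 was the lowest of the 4 fish with both.

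Fish 46 was the highest in both tissues for 4 genes of 3069 to 3867 bp. The one with the widest spread between brains had 182 CPM in the brain of fish 46, 90.4 in fish 24, 80.9 in fish 8, 40.5 in fish 6, 32.6 in fish 38 and 26.0 in fish 41. In skin it had 282 CPM in fish 46, 122 in fish 38, 84.4 in fish 41, 26.5 in fish 8 and 22.0 in fish 12. Here only the top fish was shared, since fish 8 was the second of the 4 in brain and the last in skin. The brain of fish 41 was the lowest brain for all 4 genes. All 4 were called higher in skin, with edgeR adjusted p from 8.79e-05 to 0.0383.

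The remaining 5 of the 11 genes were highest in skin of fish 12, whose brain was not analysed here, and in all 5 the brain of fish 6 was the highest brain. How often the brain of fish 6 is the highest among other genes was not counted. The list of 11 itself depends on that brain, since 7 genes met the rule without it. The match was seen after the values were known, and it was not tested.

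**Figure D5:**
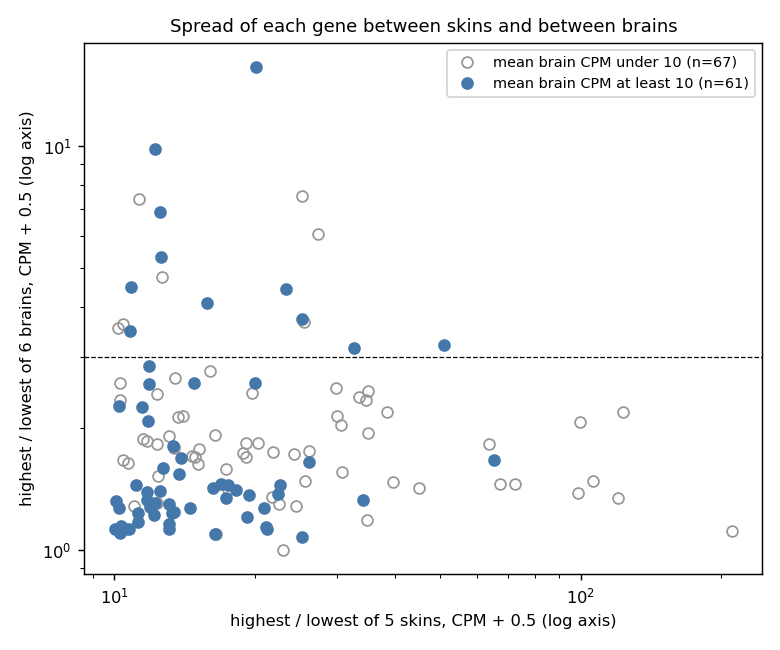
For each of the 128 genes, the ratio of the highest to the lowest of the 5 skins (x, log axis) and of the 6 brains (y, log axis), with 0.5 added to each CPM. Filled points average 10 CPM or more in brain, open points less, and the dashed line marks a ratio of 3 between brains. Of the 61 filled points, 11 lie above the line, and 1 exceeds 10.

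The left-out library, labelled skin of fish 6, gives values that did not choose the genes. There, 65 of the 128 genes (50.8%) were above all 6 brains, against 17.7% of all genes and 44.7% of the other abundant skin genes. The share differed between groups by highest skin. It was 17 of 20 for genes led by skin of fish 8, 27 of 53 for fish 12, 6 of 13 for fish 41, 9 of 24 for fish 38 and 6 of 18 for fish 46. All 9 genes carried by fish 8, 12 and 46 were above every brain, with a median of 34.4 CPM, as were 11 of the 12 carried by all skins except that of fish 41, with 13.02 CPM. The 20 low-brain genes led by skin of fish 38 summed to 30.1 CPM, against 15.3 to 29.1 in the 6 brains and 24.5 in the brain of fish 6. The part of this library's brain-like content in these shares was not tested.

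Gene length, which the rule did not use, had a median of 2494 bp in the 128 genes (quartiles 1449 and 4186), 2324 bp over all genes with a count and 3140 bp in the other abundant skin genes. The lengths are those implied by the deposited counts and RPKM.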

How the data were processed

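The authors deposited 1 table with whole-number read counts and RPKM values (scaled by gene length and library size) for 12 libraries. Per the submitters' processing notes, which state no roles, the tools were featureCounts 1.4.3-p1, TopHat2 2.0.6 and CASAVA 1.8.4. Not given in the sources used here: genome build, annotation, strand setting and the treatment of multiply matching reads. Overlapping genes and near-identical copies may therefore share reads. In all 23212 genes with a count, the deposited RPKM and counts gave 1 gene length within a relative tolerance of 0.001. None of the identifiers (0 of 23546) was found among the 38438 genes of the RefSeq table of NfurGRZ-RIMD1.

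Levels are CPM by column total. Brain (6 libraries) and skin (5) were compared with edgeR 4.0.16 in R 4.3.3, with TMM factors, default low-count filter, robust quasi-likelihood fits and Benjamini-Hochberg adjustment over all genes tested. All 128 genes passed the filter. Standard errors were derived from the estimate and its statistic. DESeq2 1.42.0 was an alternative. Tested on simulated data for this comparison (200 of 20149 genes changed), 22% of 2-fold and 78% of 4-fold changes were recovered, with 3 false calls. The real comparison called many more genes, 7405 higher in skin and 7971 higher in brain, so these rates may not carry over to it. Nothing says how the fish were housed or sampled beyond the labels, so p-values measure the spread between these libraries.

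The fish numbers of the labels were taken to pair the libraries. For the 4 fish with both tissues, deviations from the tissue mean correlated at 0.129 to 0.405 across 7346 genes. No correlation between libraries of different fish is given beside these, so they do not test the pairing. Brain-enriched genes had a median of at least 10 CPM in brain, 20-fold that of skin, without the library measured. The genes printed by identifier are the first 2 called higher in skin and the first 2 (here 1) called higher in brain, by highest skin CPM. The genes and lists were chosen with earlier results of these data known.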

Additional observations from a re-analysis of the deposited data

Results flagged for a closer look

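In 4 of the 20 groups of 5 or 6 values that were examined, a single library stood far apart, which chance gives in about 1 group in 20. Skin of fish 12 had 21122 summed CPM of the genes highest in it, against 1597 to 5749 in the other skins, and skin of fish 38 had 8012 of those highest in it, against 585 to 1991. Both follow from the choice of those genes, and the groups share genes and libraries. The count of 4 can therefore not be held against the chance rate. The brain of fish 6 had 4741 summed CPM of the genes highest in skin of fish 12, against 3507 to 3744 in the other brains, a value that the choice did not use. A few abundant genes carry much of this sum. Of these, 1 had 1252 CPM in the brain of fish 6, against 693 to 965 in the other brains, and 1 had 403, against 125 to 192. The median of the group was 19.2 CPM in the brain of fish 6, against 13.3 to 15.1. In skin of fish 41, genes at least 20-fold higher in brain reached 2.80% of their brain value, against 0.408 to 0.911% in the other skins.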

How the results depend on the processing

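Of 150 alternatives computed, 133 kept the direction and stayed within 1.5 times the reported count or on the same side of the threshold. The number of genes by the rule was 195 with TMM factors, 206 with a minimum of 50 CPM, 78 with 200 CPM, 48 with a ratio of 20 and 1284 with the library labelled skin of fish 6. Leaving out 1 skin gave 52 (fish 12) to 113, with 83 without fish 41. The largest set of carrying skins, chosen again without each skin, held 20 to 38 genes, with 20, carried by fish 38 and 46, when fish 12 was left out. The number called higher in brain was 4 with library size only, 12 with the replicate block and 1 to 13 with 1 library left out, with 13 without skin of fish 12 and 2 without skin of fish 38. The block moved no other count of calls by over 1.5 times, and DESeq2 gave 93 higher in skin and 1 higher in brain, with 28 of the 128 left without an adjusted p. The number of 10-fold genes between brains was 0 without the brain of fish 8 or of fish 38 and otherwise 1. The number of 3-fold genes between brains was 7 to 11, the lowest without the brain of fish 6. The same fish was highest in both tissues in 18 of 61 genes at a minimum of 10 CPM, where all genes gave 29.2%. With 1 fish left out it was 27 of 91 genes to 41 of 90, or 29.7 to 45.6%, against 35.7 to 38.3% of all genes. Of the 24 genes led by skin of fish 38, 12 had at least 100 brain reads, and in 4 of these the brains of fish 6 and 38 were highest. With TMM factors 4 genes met the conditions on the spread between brains in place of 6, and all 4 matched. Causes were not tested. The alternatives on the same-fish match, the genes led by fish 38, the 3-fold genes, the brain levels of the fish 12 set and the largest set without single skins were chosen after seeing the data.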
